A study of Homo sapiens with 6 samples.

Results

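Lysosomal genes were followed across 6 RNA-seq libraries, 3 labelled ABCF1 and 3 labelled NC-1. The set was a list of 42 gene symbols, chosen with earlier results of these data known. The symbols were matched by name to the deposited tables, and all 42 were found among the 60612 genes. They were sorted by role into the acid pump of the lysosome (the V-ATPase, 15 genes in its V0 sector, V1 sector and accessory proteins), 9 proteases, 5 glycosidases, 5 lipid hydrolases and lipid-handling luminal proteins, 6 membrane proteins and 2 transcription factors. The libraries carry the labels HepG2, an established line from a human liver tumour, and liver, and the genotype ABCF1 or NC-1. The series describes HepG2 lines made to overexpress ABCF1, its design text names forms with lysine changed to arginine, and the labels do not say which form the libraries carry or what NC-1 stands for. No treatment, time, promoter or number of clones is given in the sources used here, nor whether the 3 replicates under a label were grown as separate cultures. The p-values therefore measure only the spread among these libraries, possibly a technical one.

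The lysosome is the acidic compartment in which cells break down proteins, glycans and lipids. The V-ATPase pumps protons into it, with the V1 sector splitting ATP on the cytosolic side and the V0 sector carrying protons through the membrane. Proteases and glycosidases work in the acid lumen under a coat of heavily glycosylated membrane proteins such as LAMP1, and the transcription factors TFEB and TFE3 can switch on many of these genes together through a short DNA element built around CACGTG.

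Total counts ran from 62323034 to 77394510 per library. ABCF1 itself was at 102, 108 and 109.7 CPM with the ABCF1 label, compared with 162, 159 and 155 CPM with the NC-1 label, where CPM are read counts scaled by TMM library size to a common total. It was lower in all 3 libraries labelled ABCF1, with a log2 fold change of -0.57 (SE 0.08) and an adjusted p of 0.25 by edgeR and 6.1e-08 by DESeq2 (0.00089 by edgeR with the library set described next, and 0.00012 with the set and a length and GC offset), so the transcript goes against the label, and directions are given by label throughout. On the first principal component 2 libraries, ABCF1 replicate 3 and NC-1 replicate 2, were far from the other 4. The split into these 2 and the other 4 is called the library set, and fits with it as a covariate or without the 2 libraries are given beside the results. No label names a batch. The markers of liver secretion that should define HepG2 were near 0, the 13 genes summing to 0.362 to 0.677 CPM with the ABCF1 label and 0.424 to 2.23 CPM with the NC-1 label, with ALB at a mean of 0.116 CPM and APOH at 0 counts. Macrophages are rich in lysosomes, and 6 of 9 macrophage markers, PTPRC, CD163, MARCO, AIF1, TYROBP and FCER1G, had 0 counts in all 6 libraries. The macrophage list summed to 10.6 to 13.98 CPM against 8.65 to 11.4 CPM, nearly all of it CSF1R. The 6 fibroblast markers summed to 73.7 to 86.9 CPM against 66.6 to 81.7 CPM with COL1A2 at 0 counts, and the 5 endothelial markers to 1.94 to 2.83 CPM against 1.82 to 2.43 CPM with KDR at 0 counts.

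Most of the lysosomal genes were abundant transcripts, and their levels spanned a wide range. On the deposited RPKM scale, which divides by transcript length and lets genes be compared, 17 of 42 had a mean over the 6 libraries above 50 RPKM and 36 had one above 10 RPKM. The cysteine protease CTSZ led at 672 RPKM, followed by the membrane tetraspanin CD63 at 508 RPKM and the sphingolipid activator precursor PSAP at 461 RPKM. The lowest value of CTSZ in any library, 617.4 RPKM, lay only just above the highest of CD63, 616.7 RPKM. The ranges of CD63 and PSAP overlapped. At the other end, ATP6V1C1 was at 4.81 RPKM, TFEB at 5.66 RPKM and the dipeptidyl peptidase CTSC at 0.588 RPKM. The aminopeptidase CTSH had 0 counts in all 6 libraries, where a count of 0 allows up to 0.0477 CPM in the shallowest one (3 counts, counting error only). CTSH was the only gene of the list that did not pass the expression filter, so 41 genes were tested. The other cathepsins lay between CTSZ and CTSC, and fewer cells of a type and less RNA per cell cannot be told apart in such bulk libraries.

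**Figure D1:**
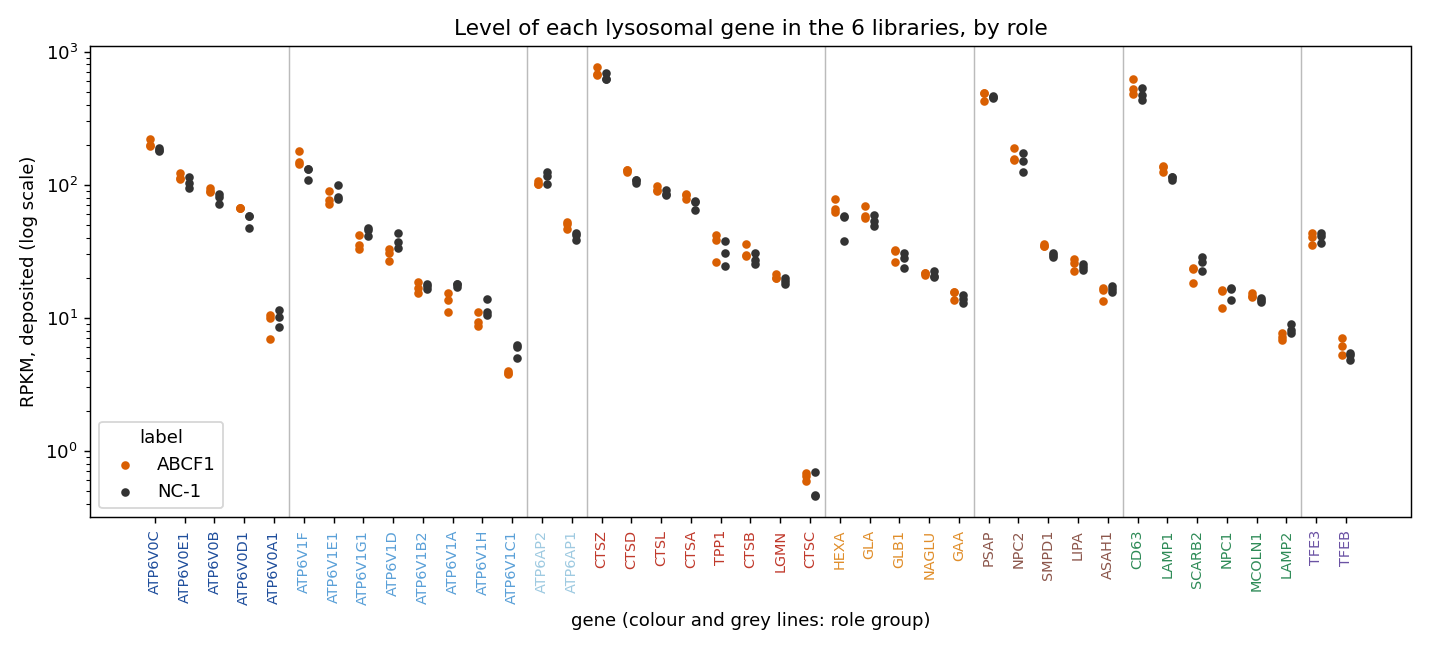
Deposited RPKM (log scale) of the 41 lysosomal genes with counts, grouped by role and ordered by mean level within each role, with 1 point per library (orange, ABCF1; black, NC-1). CTSZ, CD63 and PSAP stood above 400 RPKM, CTSC lay below 1 RPKM, and for most genes the spread between genes was far wider than that between the labelled groups.

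Between the labelled groups, lysosomal hydrolases and V0 subunits were mostly at higher values in the libraries labelled ABCF1 and V1 subunits mostly at lower values. Over the 41 tested genes the median log2 fold change was 0.22, with 29 positive, against a median of 0.00 over all 16545 tested genes, 50.1% of them positive. Differences were small, from -0.43 for ATP6V1C1 to 0.48 for CTSC. The 3 libraries labelled ABCF1 all lay above the 3 labelled NC-1 in CPM for 18 of the 41 genes (43.9%, against 10.7% of all tested genes) and all below for 2 (4.88%, against 12.4%). In the other 21 genes the groups overlapped. The list was more abundant than the background, with a median of 33.5 RPKM against 4.41 RPKM over all tested genes. The shares over all tested genes, here and below, were not matched for abundance, and its part in the differences was not tested. The edgeR quasi-likelihood test, adjusted by Benjamini-Hochberg over all tested genes, called 0 of the 41 and 0 of 16545 genes (0% of the background in either direction), the smallest adjusted p of a lysosomal gene being 0.25. At an unadjusted p under 0.05 the same test had 14 lysosomal genes higher and 2 lower, against 6.27% higher and 8.54% lower over all tested genes. With library size in place of TMM scaling, which moved the median of all genes to -0.10, those counts were 6 and 5, or 14.6% and 12.2% of the 41, against 1.72% higher and 14.6% lower over all tested genes.

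Fits that took account of the 2 libraries lying apart, and the DESeq2 test, called part of the list. The DESeq2 Wald test called 7 higher (1.47% of all tested genes were) and 1 lower (2.31% of all). With the library set as a covariate, edgeR called 23 higher, or 56.1%, against 12.9% of all tested genes, and 6 lower, or 14.6%, against 12.5%. The set was itself read from these counts, which the p-values with it do not take into account. Without ABCF1 replicate 3 and NC-1 replicate 2, edgeR on the 4 other libraries called 18 higher (6.03% of all) and 2 lower (5.51% of all). The 2 libraries left out were picked from the same counts, which the p-values of that fit do not take into account either. All 8 genes called by DESeq2 were among those called with the library set. They were LAMP1, CTSA, CTSB, CTSD, HEXA, SMPD1 and ATP6AP1 as higher and ATP6V1C1 as lower.

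**Figure D2:**
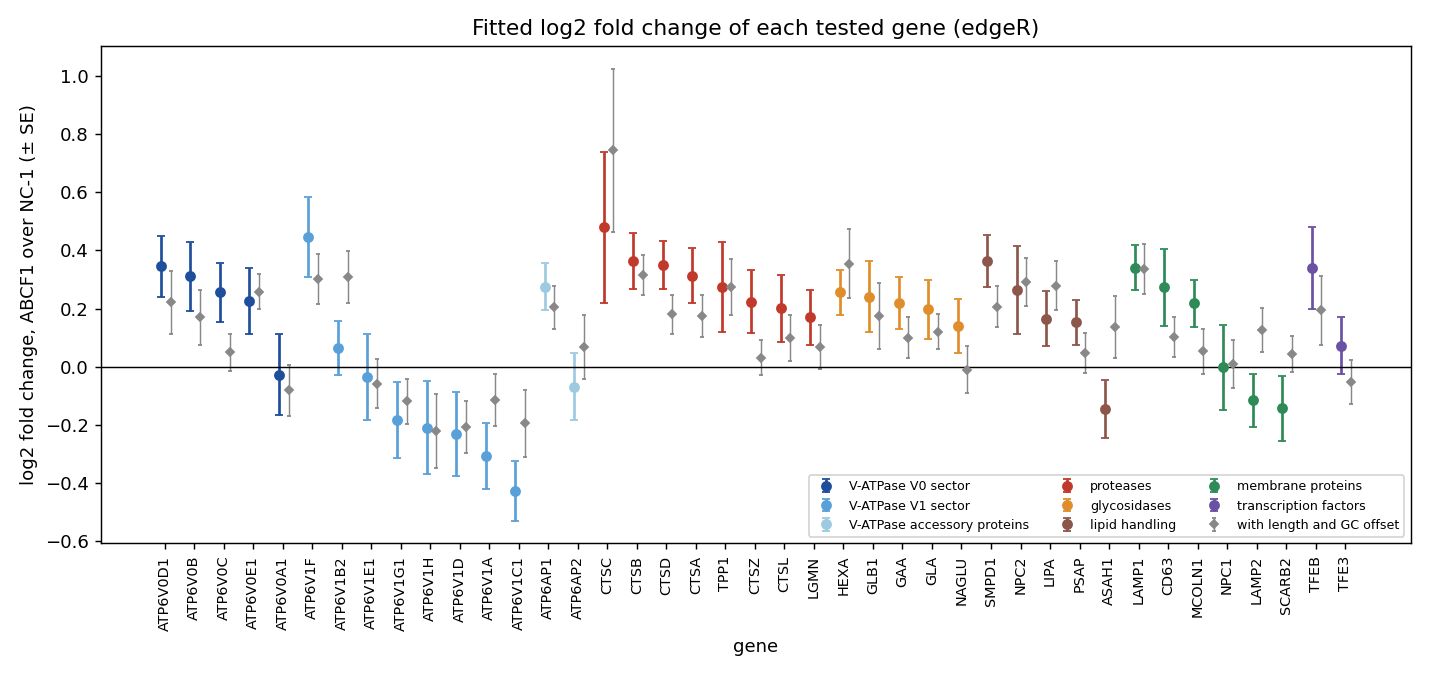
Fitted log2 fold change of each tested lysosomal gene, ABCF1 over NC-1, with its standard error from edgeR on 3 against 3 libraries. Coloured circles are the fit without covariates, by role, and grey diamonds the fit after removing each library's trend with transcript length and GC content. All 8 tested proteases and all 5 glycosidases lie above 0 as circles, while 6 of 8 V1 subunits lie below.

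The libraries differed along the GC content and length of transcripts, and this moved with the lysosomal fold changes. Relative to the gene mean, GC-rich transcripts were higher in each library labelled ABCF1 (Spearman rho across 16357 genes, which are not independent replicates, 0.24 to 0.33) and lower in each labelled NC-1 (-0.31 to -0.20). Over the 41 tested lysosomal genes, whose fold changes share the same 6 libraries, the log2 fold change had a rho of 0.51 with transcript GC content and -0.12 with length. Of 12 lysosomal genes with 55% GC or more, all 12 had a positive fold change (median 0.28), against 78.9% of all tested genes in that range (median 0.17). Between 45% and 55% GC it was 12 of 17 (median 0.20) against 54.3% of all genes (0.03). Below 45% it was 5 of 12 (median -0.09) against 20.02% of all genes (-0.20). The lysosomal genes thus had a higher median and a larger positive share than all genes in each range, given here without a test.

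When each library's smooth trend with length and GC content was removed by an offset for each gene, the median over the 41 genes went from 0.22 to 0.12, with 32 positive, against 0.02 and 53.4% over all 16357 genes in that fit. The correlation with GC content over the 41 genes was then -0.02. This pooled value joins 2 opposite trends that remained. Over the 15 V-ATPase genes rho went from 0.74 to 0.25, and over the 26 other genes from 0.27 to -0.36. Length and GC content were those of the longest annotated transcript of each gene. Whether that form was the one expressed was not tested, which limits the offset value of any single gene. That fit called 0 genes, and with the library set added edgeR called 14 of 41 higher, or 34.1% (5.06% of all genes were), and 0 lower (1.69% of all). Of these 14 genes, 12 had also been called with the library set alone, and LIPA and ATP6V1B2 had not.

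**Figure D3:**
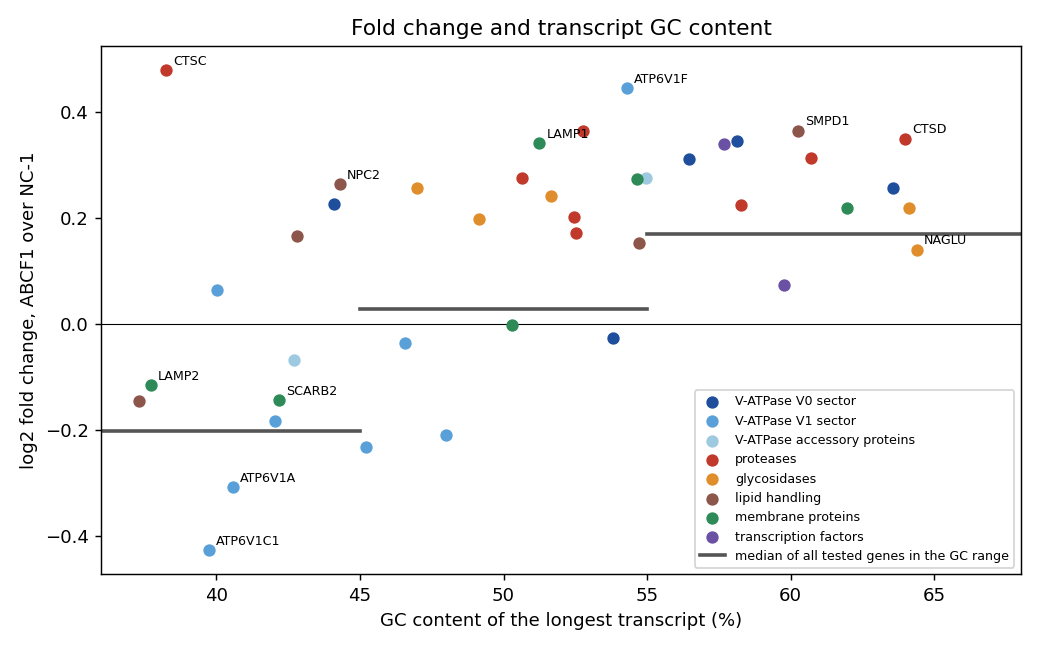
Log2 fold change (ABCF1 over NC-1, edgeR without covariates) against the GC content of the longest GENCODE 29 transcript for the 41 tested lysosomal genes, coloured by role. Grey lines give the median of all tested genes below 45%, from 45% to 55% and from 55% GC, at -0.20, 0.03 and 0.17, and most lysosomal genes lie above the line of their range.

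Among the 6 membrane proteins 3 had positive fold changes, LAMP1 the largest, with a median of 0.11 that was 0.065 without NC-1 replicate 2 and 0.065 without ABCF1 replicate 1. LAMP1, among the most abundant glycoproteins of the lysosomal membrane, lies on chromosome 13 (113297239 to 113323672, plus strand) in GRCh38, the build of all coordinates here. It was at 419, 416 and 403 CPM with the ABCF1 label, compared with 323, 321 and 334 CPM with the NC-1 label. The groups were far apart relative to the spread within them, with the lowest library labelled ABCF1 well above the highest labelled NC-1. The log2 fold change was 0.34 (SE 0.08), with an adjusted p of 0.25 by edgeR and 0.0012 by DESeq2. It was the same size after the length and GC offset, at 0.34 (SE 0.09), and was called with the library set with the offset (edgeR adjusted p = 0.0016) and without it (0.0011). The deposited RPKM, 133 ± 6.86 RPKM (SD, n = 3) against 112 ± 3.59 RPKM, were in the same order.

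LAMP2, the related glycoprotein that takes part in the fusion of autophagosomes with lysosomes, was at 39.4, 35.7 and 36.7 CPM with the ABCF1 label, compared with 42.5, 39.8 and 38.9 CPM with the NC-1 label. The groups overlapped, with a log2 fold change of -0.12 (SE 0.09). The interval of 2 SE around it ran from -0.30 to 0.06. With the offset the value was 0.13, so its direction depends on that step. MCOLN1, a calcium channel of the lysosomal membrane, was at 35.5, 34.9 and 35.5 CPM with the ABCF1 label, compared with 30.04, 30.8 and 30.2 CPM with the NC-1 label. Its groups did not overlap and were tight, and the log2 fold change of 0.22 (SE 0.08) was 0.05 with the offset. PNPLA6 (179.96 CPM) overlaps MCOLN1 on the same strand, so the assignment of some reads is uncertain. CD63 was at 511, 545 and 675 CPM with the ABCF1 label, compared with 453, 537 and 443 CPM with the NC-1 label. The groups overlapped, with ABCF1 replicate 3 and NC-1 replicate 2 each the highest of its label. CD63 had a log2 fold change of 0.27 (SE 0.13), or 0.10 with the offset and 0.15 without ABCF1 replicate 3. SCARB2, the receptor that carries glucocerebrosidase to the lysosome, was at 121, 121 and 100.5 CPM with the ABCF1 label, compared with 134, 114 and 131 CPM with the NC-1 label, with overlapping groups and a log2 fold change of -0.14 (SE 0.11). It was called lower with the library set (edgeR adjusted p = 0.04) and stood at 0.04 with the offset and -0.053 without ABCF1 replicate 3. NPC1, the cholesterol exporter of the lysosomal membrane, had a log2 fold change of -0.003 (SE 0.15), an interval of 2 SE from -0.29 to 0.29. NPC1 is overlapped by RMC1 (13.5 CPM) on the opposite strand, and where genes overlap so, reads cannot be assigned without strand, whose use is not given in the sources used here.

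All 8 tested proteases had positive fold changes, with a median of 0.29. In 5 of 8 the groups did not overlap on the higher side, against 10.7% of all tested genes. CTSD, the main aspartic protease of the lysosome, lies on chromosome 11 (1752755 to 1764573, minus strand). It was at 289.7, 291 and 311 CPM with the ABCF1 label, compared with 232, 242 and 226 CPM with the NC-1 label, every library labelled ABCF1 being above every one labelled NC-1. Its log2 fold change was 0.35 (SE 0.08), with an adjusted p of 0.25 by edgeR and 0.0039 by DESeq2, and 0.18 (SE 0.07) with the offset. CTSD overlaps the annotated coding gene AC068580.4 on the same strand, which took a mean of 5.33 CPM. CTSB, a cysteine protease, was at 109, 113 and 113 CPM with the ABCF1 label, compared with 90.1, 77.7 and 91.7 CPM with the NC-1 label, again without overlap. It had a log2 fold change of 0.36 (SE 0.10), an adjusted p of 0.25 by edgeR and 0.015 by DESeq2, and kept most of it with the offset, at 0.32 (SE 0.07). On the RPKM scale CTSB was at 31.5 ± 3.62 RPKM (SD, n = 3) against 27.7 ± 2.81 RPKM, means that differed by about the spread within a label.

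CTSA, a carboxypeptidase that also protects beta-galactosidase and neuraminidase in a complex, was at 179.9, 174 and 194 CPM with the ABCF1 label, compared with 144, 138 and 158 CPM with the NC-1 label. The groups did not overlap, and its log2 fold change of 0.31 (SE 0.09) went to 0.18 with the offset. CTSZ, the most abundant gene of the list, was at 1118, 1139 and 1349 CPM with the ABCF1 label, compared with 957, 1129 and 1002 CPM with the NC-1 label. NC-1 replicate 2 reached into the range of the libraries labelled ABCF1. Without ABCF1 replicate 3, CTSZ was at 0.14 and CTSL at 0.12 on the log2 scale. With all libraries CTSZ had a log2 fold change of 0.22 (SE 0.11) and, with the offset, of 0.03 (SE 0.06), at a transcript GC content of 58.3%. The log2 fold change of CTSL, which also cuts proteins as a cysteine protease, was 0.20 (SE 0.11), or 0.10 with the offset. LGMN, the asparaginyl endopeptidase that processes other cathepsins, had one of 0.17 (SE 0.09), or 0.07 with the offset. TPP1, a tripeptidyl peptidase, was at 145, 147 and 109 CPM with the ABCF1 label, compared with 123, 92.2 and 116 CPM with the NC-1 label. Within each label 1 library was low, ABCF1 replicate 3 and NC-1 replicate 2, and the groups overlapped. The log2 fold change of TPP1 was 0.27 (SE 0.15), and without those 2 libraries, and with the library set, it was 0.29 and 0.27, called in both edgeR fits (adjusted p = 0.017 and 0.0035). Without NC-1 replicate 2 alone TPP1 was at 0.16. CTSC had the largest fold change of the list, 0.48 (SE 0.26), or 0.74 with the offset, from only 68 to 126 counts per library. Its values were 1.69, 1.51 and 1.74 CPM against 1.08, 1.48 and 0.988 CPM, the lowest library labelled ABCF1 being barely above the highest labelled NC-1.

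The glycosidases, which remove sugars from glycolipids and glycans, were all positive, with a median of 0.22 and a narrow range from 0.14 to 0.26. HEXA, the alpha subunit of beta-hexosaminidase, was at 168, 169 and 165 CPM with the ABCF1 label, compared with 137, 142 and 142 CPM with the NC-1 label. Libraries of a label lay within 5 CPM of each other, and the groups were clearly apart. The log2 fold change was 0.26 (SE 0.08), with an adjusted p of 0.26 by edgeR and 0.016 by DESeq2. With the offset it was larger, at 0.35 (SE 0.12), and its deposited RPKM were 68.9 ± 8.14 RPKM (SD, n = 3) against 51 ± 11.5 RPKM. GAA, the acid alpha-glucosidase that breaks down glycogen, was at 58, 58.9 and 54.7 CPM with the ABCF1 label, compared with 47.7, 47.4 and 52.3 CPM with the NC-1 label, without overlap. GAA had a log2 fold change of 0.22 (SE 0.09), or 0.10 with the offset. GLB1, the lysosomal beta-galactosidase, was at 86.9, 87.8 and 76.3 CPM with the ABCF1 label, compared with 78.4, 60.5 and 73.6 CPM with the NC-1 label, with overlap and a log2 fold change of 0.24 (SE 0.12). As in TPP1, the lowest GLB1 library of each label was ABCF1 replicate 3 and NC-1 replicate 2, and without the latter GLB1 was at 0.14. GLA, the alpha-galactosidase, was at 101.5, 104 and 122 CPM with the ABCF1 label, compared with 93.9, 100.9 and 90.8 CPM with the NC-1 label. Its groups did not overlap, but the lowest library labelled ABCF1 was barely above the highest labelled NC-1. GLA had a log2 fold change of 0.20 (SE 0.10), 0.12 with the offset and 0.12 without ABCF1 replicate 3, and the abundant ribosomal gene RPL36A (423 CPM) overlaps it on the opposite strand, so the assignment of its reads is uncertain. NAGLU, which acts on heparan sulfate, had one of 0.14 (SE 0.09), which went to -0.01 with the offset and 0.085 without NC-1 replicate 1.

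Of the 5 genes of lipid breakdown and handling, 4 were positive, with a median of 0.17. SMPD1, the acid sphingomyelinase, was at 87.2, 93.4 and 94 CPM with the ABCF1 label, compared with 70.1, 75.9 and 67.4 CPM with the NC-1 label. All 3 libraries labelled ABCF1 were above the rest, and the log2 fold change was 0.36 (SE 0.09), with an adjusted p of 0.25 by edgeR and 0.011 by DESeq2. With the offset it was 0.21 (SE 0.07). PSAP, the precursor of the saposins that help enzymes reach sphingolipids, was at 1429.5, 1457 and 1347 CPM with the ABCF1 label, compared with 1219, 1306 and 1284 CPM with the NC-1 label. These groups did not overlap, but the log2 fold change was only 0.15 (SE 0.08), and 0.05 with the offset. NPC2, which hands cholesterol to NPC1, was at 141, 146 and 183 CPM with the ABCF1 label, compared with 129, 153 and 109.9 CPM with the NC-1 label. Its replicates spread widely and overlapped, with a log2 fold change of 0.26 (SE 0.15) that was 0.14 without ABCF1 replicate 3 and 0.15 without NC-1 replicate 3. LIPA, the acid lipase, was at 76.3, 72.2 and 65.7 CPM with the ABCF1 label, compared with 64.9, 65.2 and 60.8 CPM with the NC-1 label, a small gap without overlap. LIPA had a log2 fold change of 0.17 (SE 0.09), or 0.28 with the offset and 0.11 without ABCF1 replicate 1, and IFIT1, IFIT2 and IFIT3 lie across it on the opposite strand at 39.7 to 56.7 CPM, so its reads are uncertain. ASAH1, the acid ceramidase, was the exception, at 43.3, 39.8 and 46.8 CPM against 47.2, 50.9 and 45.6 CPM. Its groups overlapped, its log2 fold change was -0.14 (SE 0.10), and it was 0.14 with the offset and -0.093 without ABCF1 replicate 2.

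Within the V-ATPase, the membrane sector V0 and the ATP-splitting sector V1 lay on opposite sides of 0, given here as a description with no test. The median log2 fold change of the 5 V0 genes was 0.26, 4 of them positive, and that of the 8 V1 genes -0.20, 2 of them positive. With 1 library left out, the V1 median ran from -0.26 (without NC-1 replicate 3) to -0.078 (without NC-1 replicate 2). It was -0.13 without ABCF1 replicate 2. The V0 median ran from 0.18 (without ABCF1 replicate 3) to 0.32 (without NC-1 replicate 2). The groups did not overlap for 2 V0 genes on the higher side, and for 1 V1 gene on the higher and 2 on the lower side. Over all tested genes these shares were 10.7% on the higher and 12.4% on the lower side, and 1 of 8 V1 genes is near the first. In each library, the median of a sector was taken over its genes as the difference from the gene mean in log2 CPM. For V0 it was 0.02, 0.12 and 0.27 under the ABCF1 label, compared with -0.19, -0.03 and -0.21 under the NC-1 label. For V1 it was -0.19, -0.13 and 0.11 under the ABCF1 label, compared with 0.01, 0.25 and -0.04 under the NC-1 label. The V0 median minus the V1 median was 0.21, 0.25 and 0.16 under the ABCF1 label and -0.20, -0.27 and -0.17 under the NC-1 label, without overlap. In both sectors the highest library of each label was ABCF1 replicate 3 and NC-1 replicate 2. The V0 genes had a median GC content of 56.5% and the V1 genes one of 43.6%. Over the 15 V-ATPase genes, transcript GC content and the fold change had a rho of 0.74, whose part in the split was not tested beyond the offset. In the offset fit the sector medians were 0.17 and -0.12, with 4 of 5 and 2 of 8 positive.

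**Figure D4:**
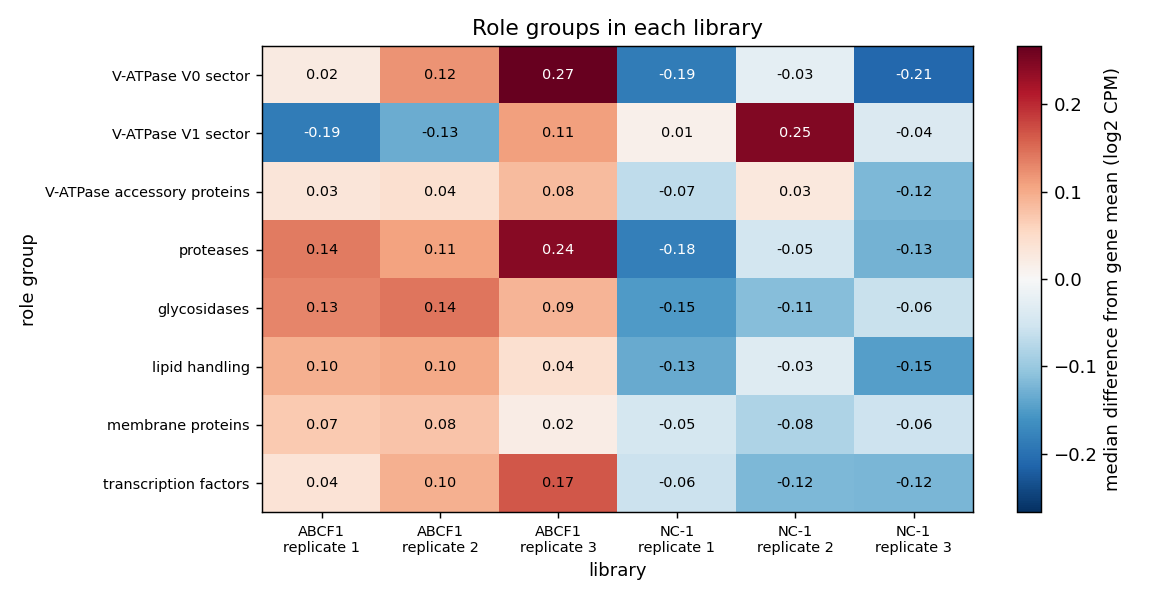
Median difference from the gene mean (log2 CPM) of each role group in each library, with red for higher and blue for lower values. Proteases and glycosidases were above 0 in all 3 libraries labelled ABCF1 and below 0 in all 3 labelled NC-1, whereas V1 was highest in NC-1 replicate 2, at 0.25, and ABCF1 replicate 3, at 0.11.

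The V0 genes were led by ATP6V0C, which encodes the proton-carrying ring subunit. It was at 235, 243 and 283 CPM with the ABCF1 label, compared with 204, 224 and 209 CPM with the NC-1 label, without overlap, with a log2 fold change of 0.26 (SE 0.10) that went to 0.05 with the offset at a transcript GC content of 63.6%. ATP6V0D1, which links the ring to the central stalk, was at 112, 111 and 123 CPM with the ABCF1 label, compared with 90.5, 100.3 and 81.8 CPM with the NC-1 label. Its groups did not overlap, its log2 fold change was 0.35 (SE 0.10), or 0.22 (SE 0.11) with the offset, and it was called with the library set in both forms of that edgeR fit (adjusted p = 0.0022 without and 0.035 with the offset). ATP6V0B, a second ring subunit, was at 114, 124 and 139 CPM with the ABCF1 label, compared with 97.4, 114 and 92 CPM with the NC-1 label. NC-1 replicate 2 was just above the lowest library labelled ABCF1, and the log2 fold change was 0.31 (SE 0.12), or 0.17 with the offset. It was called with the library set (edgeR adjusted p = 0.0029) and not with the set and the offset (0.066). ATP6V0E1, a small membrane subunit, had one of 0.23 (SE 0.11), at values of 161, 169 and 189.9 CPM against 139, 168 and 138 CPM. ATP6V0A1, an isoform of the large subunit that forms the proton path, was the only V0 gene at a negative value, -0.03 (SE 0.14), with an interval of 2 SE from -0.30 to 0.25.

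In V1, ATP6V1C1 and ATP6V1A were the lysosomal genes whose libraries labelled ABCF1 all lay below those labelled NC-1. ATP6V1C1, a stalk subunit that takes part in joining V1 to V0, was at 24.8, 24.2 and 24.6 CPM with the ABCF1 label, compared with 32.3, 36.5 and 29.97 CPM with the NC-1 label, the libraries labelled ABCF1 lying within 1 CPM of each other. Its log2 fold change was -0.43 (SE 0.10), with an adjusted p of 0.25 by edgeR and 0.019 by DESeq2, and -0.20 (SE 0.11) with the offset. ATP6V1A, the catalytic subunit, was at 77.2, 70.1 and 60.2 CPM with the ABCF1 label, compared with 80.3, 88.6 and 88 CPM with the NC-1 label. Its log2 fold change of -0.31 (SE 0.11) was -0.11 with the offset, at a GC content of 40.6%. The other nucleotide-binding subunit, ATP6V1B2, did not differ detectably, at 53.2, 60.2 and 52.2 CPM against 53.5, 51.8 and 53.1 CPM and a log2 fold change of 0.06 (SE 0.09), with an interval of 2 SE from -0.12 to 0.25. With the offset ATP6V1B2 was at 0.31 (SE 0.09) and was called higher with the library set added (edgeR adjusted p = 0.017).

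ATP6V1F, a small subunit of the central stalk, was on the other side of 0 from most of V1. It was at 108, 113 and 143 CPM with the ABCF1 label, compared with 91.6, 97.3 and 78.8 CPM with the NC-1 label, without overlap and with ABCF1 replicate 3 the highest. The log2 fold change was 0.44 (SE 0.14), or 0.30 (SE 0.09) with the offset, and it was called with the library set in both forms of the edgeR fit (adjusted p = 0.0022 without and 0.022 with the offset). ATP6V1E1, the most abundant V1 gene after ATP6V1F on the RPKM scale, a peripheral stalk subunit, was at 99, 112 and 132 CPM against 107, 139 and 106 CPM with overlapping groups and a log2 fold change of -0.04 (SE 0.15). The stalk subunits ATP6V1D, ATP6V1G1 and ATP6V1H stood at -0.23 (SE 0.14), -0.18 (SE 0.13) and -0.21 (SE 0.16) on the log2 scale, with overlapping groups. ATP6V1D was at 45.8, 50.4 and 58.1 CPM with the ABCF1 label, compared with 56.5, 71.7 and 53 CPM with the NC-1 label, and EIF2S1 and MPP5 overlap it on the opposite strand at 105 and 64.4 CPM. All 3 were called lower with the library set in edgeR, with adjusted p from 0.021 to 0.042, and with the offset added to the set none of them passed, at 0.051 to 0.29. Between these fits the log2 fold change went from -0.23 to -0.20 for ATP6V1D, from -0.21 to -0.22 for ATP6V1H and from -0.19 to -0.12 for ATP6V1G1, so the first 2 stayed about as large. Without NC-1 replicate 2 they were at -0.091, -0.065 and -0.12. Without ABCF1 replicate 3, ATP6V1H was at -0.35 and ATP6V1G1 at -0.31, and without ABCF1 replicate 2 ATP6V1G1 was at -0.11.

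Of the accessory proteins, 1 was positive and 1 negative. ATP6AP1, which helps assemble the pump, lies on chromosome X (154428645 to 154436516, plus strand) and was at 118, 117 and 112 CPM with the ABCF1 label, compared with 96.4, 92.6 and 97.1 CPM with the NC-1 label. The groups were well apart, and its log2 fold change was 0.28 (SE 0.08), with an adjusted p of 0.26 by edgeR and 0.016 by DESeq2, and 0.20 (SE 0.07) with the offset. ATP6AP2, also known as the prorenin receptor, was at 219.9, 226 and 249 CPM with the ABCF1 label, compared with 234, 278 and 216 CPM with the NC-1 label. Its groups overlapped, and its log2 fold change was -0.07 (SE 0.12), with an interval of 2 SE from -0.30 to 0.16.

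TFEB, the transcription factor best known for control of lysosomal genes, was a low transcript, at 13.5, 15.4 and 18.8 CPM with the ABCF1 label, compared with 12.7, 13.3 and 11.8 CPM with the NC-1 label. The groups did not overlap, though the lowest library labelled ABCF1 was close to the highest labelled NC-1, and ABCF1 replicate 3 was the highest. Its log2 fold change was 0.34 (SE 0.14) (edgeR adjusted p = 0.33), or 0.19 (SE 0.12) with the offset and 0.21 without ABCF1 replicate 3. Its relative TFE3 was more abundant, at 158, 149.6 and 136 CPM with the ABCF1 label, compared with 147, 129 and 145 CPM with the NC-1 label. The groups overlapped, and the log2 fold change was 0.07 (SE 0.10) with an interval of 2 SE from -0.12 to 0.27.

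Because TFEB and TFE3 bind an element around CACGTG, the RefSeq promoter windows of the list (250 bases before to 50 after each start, GRCh38.p14) were searched for it on both strands. The table held 44 windows for 30 of the 42 genes. CACGTG was in 9 of 44 windows (20.5%), against 7.26% of all 35116 windows and 9.36% of the 16039 windows of tested genes. The longer TCACGTG, which contains it, was in 8 of 44 (18.2%), against 3.71% and 5.31%. A match is a description of the letters and not a binding site. Stretches from the 9 genes with CACGTG before the start are shown because they let the LAMP1, CTSD and V-ATPase promoters be compared, each from up to 20 bases before the first match to 20 after the last, cut at the start site, 5′ to 3′ on the strand of the gene, with each CACGTG in capitals.
LAMP1: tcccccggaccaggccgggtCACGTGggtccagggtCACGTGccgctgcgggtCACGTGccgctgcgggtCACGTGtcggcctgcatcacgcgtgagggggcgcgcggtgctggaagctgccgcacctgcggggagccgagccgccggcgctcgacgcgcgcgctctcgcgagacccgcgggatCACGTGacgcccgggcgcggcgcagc
CTSD: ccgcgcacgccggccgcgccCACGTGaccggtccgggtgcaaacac
CTSA: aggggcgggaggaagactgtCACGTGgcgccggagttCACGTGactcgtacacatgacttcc
GAA: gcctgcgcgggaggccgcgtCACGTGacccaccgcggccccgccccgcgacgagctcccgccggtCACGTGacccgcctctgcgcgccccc
MCOLN1: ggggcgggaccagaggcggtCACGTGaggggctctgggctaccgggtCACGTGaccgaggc
CD63: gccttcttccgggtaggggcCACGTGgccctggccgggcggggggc
ATP6V0B: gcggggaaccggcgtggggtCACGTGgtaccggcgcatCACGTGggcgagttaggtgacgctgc
ATP6V0D1: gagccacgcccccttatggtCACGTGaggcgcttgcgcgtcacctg
ATP6V1G1: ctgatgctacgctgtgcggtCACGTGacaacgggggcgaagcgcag
LAMP1 held 6 matches, the most of the genes shown, 5 of them printed (192 to 28 bases before the start) and 1 that runs across the start. ATP6V0B, GAA, MCOLN1 and CTSA held 2 each and the others 1. In CD63 the match lay 180 bases before the start and was not preceded or followed by the base that would make TCACGTG. The stretches lie at chr13:113297027-113297236 for LAMP1, chr11:1763949-1763994 for CTSD, chr20:45891273-45891334 for CTSA, chr17:80101485-80101575 for GAA, chr19:7522563-7522623 for MCOLN1, chr12:55729164-55729209 for CD63, chr1:43974883-43974946 for ATP6V0B, chr16:67481191-67481236 for ATP6V0D1 and chr9:114587691-114587736 for ATP6V1G1. The 9 genes with a match had a median log2 fold change of 0.31, 8 of them positive, and the 20 tested genes with a window but no match one of 0.21, 14 of them positive. ATP6V1G1 was the gene with a match and a negative value. These medians are without the offset, and the 2 sets differed in GC content, which had a rho of 0.51 with the fold change over the 41 genes. At 55% GC or more lay ATP6V0B, ATP6V0D1, CTSA, CTSD, GAA and MCOLN1 with a match. Without one, ATP6V0C, CTSZ, SMPD1, TFEB and TFE3 lay there. The part of GC content or of the element in the difference was not tested.

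Other genes of the pathway, taken from lists by role that were also chosen with earlier results known, had a median fold change closer to 0. Of 100 such genes found in the tables, 91 were tested, with a median log2 fold change of 0.03, 53 positive, 18 with groups not overlapping on the higher side and 6 on the lower (10.7% and 12.4% of all tested genes). Without a covariate edgeR called 0 of them. With the library set it called 21 of the 91 higher and 8 lower, where 12.9% and 12.5% of all tested genes were called. On the 4 libraries it called 10 and 2 (6.03% and 5.51% of all), and with the set and the offset 8 and 0 (5.06% and 1.69% of all). DESeq2 called 2 higher (1.47% of all tested genes were) and 0 lower (2.31% of all), both of them transporters of the lysosomal membrane. MFSD12, a cysteine importer, was at 1742, 1811 and 1977 CPM with the ABCF1 label, compared with 1457, 1454 and 1476 CPM with the NC-1 label, well apart, with a log2 fold change of 0.33 (SE 0.08) and a DESeq2 adjusted p of 0.0093. SPNS1, an exporter of lysophospholipids, was at 78.8, 76.7 and 76.2 CPM with the ABCF1 label, compared with 63.3, 62.4 and 59.6 CPM with the NC-1 label, with 0.32 (SE 0.08) and a DESeq2 adjusted p of 0.0064.

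The 28 other lysosomal hydrolases tested had a median of 0.11, with 19 positive and 9 of 28 non-overlapping on the higher side, where 10.7% of all tested genes were. MAN2B1, the lysosomal alpha-mannosidase, was at 98.6, 101 and 93.4 CPM with the ABCF1 label, compared with 83.4, 73.1 and 83.6 CPM with the NC-1 label, and PLA2G15, a lysosomal phospholipase, at 38, 40.6 and 41.3 CPM against 31.4, 30.9 and 36.1 CPM. Their log2 fold changes were 0.29 (SE 0.09) and 0.28 (SE 0.10). Among 8 further V-ATPase genes with a median of 0.18, TCIRG1, another isoform of the large V0 subunit, was at 98.2, 96.6 and 106 CPM against 88.1, 83.5 and 86.4 CPM with 0.22 (SE 0.09), and ATP6V0E2 at 14.4, 12.9 and 14.8 CPM against 11.6, 13.4 and 12.1 CPM with 0.19 (SE 0.11). Of the 16 genes that sort enzymes to the lysosome (median 0.04), the adaptor GGA1 was at 35, 32 and 29.4 CPM against 27.1, 25.1 and 24.8 CPM with 0.32 (SE 0.10), whereas GNPTAB, which makes the mannose 6-phosphate tag, was at 18.7, 18.7 and 14.2 CPM against 23.6, 20.1 and 27.1 CPM with -0.45 (SE 0.16). The 15 genes of Ragulator, the Rag GTPases and their partners had a median of -0.002, with RRAGA at 98.5, 98.4 and 99.3 CPM against 86.9, 89.2 and 84.5 CPM and LAMTOR1 at 54.8, 48.8 and 69.95 CPM against 44.9, 46.9 and 47.7 CPM. MITF, a relative of TFEB, was at 36.2, 31.6 and 30.6 CPM against 39.2, 36.5 and 46.2 CPM, below NC-1 in all 3 libraries labelled ABCF1, with a log2 fold change of -0.31 (SE 0.12), and ZKSCAN3, described as a repressor of lysosomal genes, was at 3.58, 4.2 and 4.68 CPM against 5.95, 4.1 and 5.7 CPM with -0.34 (SE 0.20). None of these 10 genes was called by DESeq2 or by edgeR without a covariate. With the library set edgeR called 8 of them, all but ATP6V0E2 and ZKSCAN3, and with the set and the offset it called MAN2B1 (adjusted p = 0.04). With the set it called 12.9% of all tested genes higher and 12.5% lower. The 10 genes had been picked by their small p in the edgeR fit without a covariate on the same libraries. Their calls in these refits therefore add no separate support.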

How the data were processed

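RNA was extracted with Trizol and made into TruSeq libraries from 1 µg of total RNA, per the labels' protocols. The authors deposited whole-number gene counts without normalization and a table of RPKM for the same 60612 genes. The submitters' processing notes list HISAT2, StringTie, edgeR, Trimmomatic, FastQC and CASAVA 1.8, and the build GRCh38. Counting settings, strand and annotation release: not given in the sources used here. The test on counts was that of edgeR 4.0.16 under R 4.3.3 (quasi-likelihood test, TMM, expression filter, two-sided, Benjamini-Hochberg over 16545 genes, threshold 0.05), with all 6 libraries and no covariate. The standard error is the log2 fold change over the square root of F. Deposited RPKM were used for levels and for limma 3.58.1. Alternatives were DESeq2 1.42.0, other scalings, no filter, RPKM, a replicate block, libraries left out, the library set, and a length and GC offset (mgcv 1.9.3, longest GENCODE 29 transcript, a value for 98.9% of tested genes). The test was also run on simulated counts that had neither a library set nor a trend with GC content or length. Their changed genes had larger fold changes than any lysosomal gene of the list in the main fit. That run therefore does not show how the test performs on differences as small as these. Members, lists and alternatives were chosen with earlier results of these data known. Values per library are named for, in each role, the 4 genes with the smallest p and the most abundant one, with a few others chosen after their values were seen, and for 2 genes of each pathway list by p. No 2 replicates were duplicates (chi-square over its degrees of freedom at least 11.4). Same-numbered replicates were not paired. Promoter sequences are from RefSeq.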

Additional observations from a re-analysis of the deposited data

How the results depend on the processing

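Of the 41 tested genes, 31 kept the sign of their log2 fold change in all 17 alternatives. Genes called higher and lower over all tested genes were 0 and 0 in the main setting, 243 and 383 by DESeq2, 998 and 912 without ABCF1 replicate 3 and NC-1 replicate 2 together, 2129 and 2064 with the library set, and 828 and 277 with the set and the length and GC offset; among the lysosomal genes they were 7 and 1, 18 and 2, 23 and 6, and 14 and 0. No setting that left out 1 library called any gene, nor did the other scalings, no filter, limma-trend on RPKM, the replicate block or the offset alone (added after the data were seen). With the replicate block the median over the list was 0.22, and 0 genes were called; same-numbered libraries had correlations of 0.11, -0.11 and -0.15 and only ABCF1 replicate 1 was most like its own number, so the numbers were not taken to pair libraries.

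Role medians moved by more than the spread between libraries as follows. With library size only they were 0.0038 for accessory proteins, and for proteases, glycosidases, lipid handling, membrane proteins, transcription factors and all 41 genes, in this order, 0.19, 0.12, 0.068, 0.0091, 0.10 and 0.12. In that order they were 0.15, 0.13, 0.059, 8.3e-05, 0.086 and 0.10 on log2(RPKM + 1), and 0.19, 0.13, 0.061, -2.1e-05, 0.10 and 0.11 on log2(RPKM + 0.1). The median of all tested genes was also lower in these settings, at -0.10 with library size only, -0.049 on log2(RPKM + 1) and -0.083 on log2(RPKM + 0.1). With the offset, with and without the library set, they were 0.18 and 0.18 for proteases, 0.12 and 0.12 for glycosidases, 0.077 and 0.078 for membrane proteins, 0.067 and 0.071 for transcription factors and 0.12 and 0.12 for all 41 genes. Without the 2 libraries together, lipid handling was at 0.24. With 1 library left out, glycosidases ran from 0.19 to 0.26, membrane proteins from 0.065 to 0.15 and all 41 genes from 0.16 to 0.23.

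The 10 genes that changed sign lay between -0.14 and 0.14 in the main setting. With the offset, with and without the library set, ASAH1 was at 0.13 and 0.14, ATP6AP2 was at 0.073 and 0.068, LAMP2 was at 0.13 and 0.13, SCARB2 was at 0.042 and 0.042, NPC1 was at 0.0068 and 0.0092, NAGLU was at -0.011 and -0.0098 and TFE3 was at -0.054 and -0.052. With library size only, log2(RPKM + 1) and log2(RPKM + 0.1), ATP6V1B2 was at -0.034, -0.033 and -0.034 and TFE3 was at -0.026, -0.035 and -0.036. NPC1 was at 0.0071 with DESeq2 size factors and 0.0071 by the DESeq2 test. Without the 2 libraries together, ATP6V0A1 was at 0.014 and NPC1 at 0.022. With 1 library left out, ATP6AP2 ran from -0.15 to 0.041, ATP6V0A1 ran from -0.12 to 0.10, ATP6V1B2 ran from -0.0076 to 0.11, ATP6V1E1 ran from -0.15 to 0.10 and NPC1 ran from -0.098 to 0.12. The causes were not tested.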
